A study of Mus musculus with 6 samples.

Results

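Genes of the NF-kappaB pathway were examined in T-cell acute lymphoblastic leukemia (T-ALL) of mice, with the repressor gene Hes1 intact or deleted. The set held 47 genes, named by their known place in the pathway, with earlier results of these data known: the brakes on signalling with the deubiquitinase gene Cyld, the kinases that activate NF-kappaB, its subunits and inhibitors, the adaptors that link it to receptors, ligands and receptors, and genes that NF-kappaB is known to induce. Of the 47, 43 had a probe under their symbol, and 30 were tested, among 11241 features tested on the whole array. A gene was tested when a probe of it was detected, at a detection p under 0.05, on at least 3 of the 6 arrays, and its brightest such probe was used.

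All 6 samples came from leukemias of genotype ΔE-NOTCH1 Rosa26 Cre-ERT2 Hes1flox/flox, in which an activated NOTCH1 drives the disease and a Cre recombinase made from the ubiquitous Rosa26 locus becomes active only with tamoxifen. The 3 Hes1 wild type samples (WT) had ethanol for 36 hours, and the 3 Hes1-/- samples (KO) had 4-hydroxy-tamoxifen for 36 hours. The leukemias were raised by retroviral transfer of NOTCH1 into bone marrow cells, transplanted into lethally irradiated NRG mice, an immunodeficient strain that lacks mature lymphocytes of its own but keeps myeloid cells. The labels name both cultured cells and tumours of treated mice as the material, and no age is used here. They call the replicates biological and the RNA isolation triplicate, without saying whether these were separate leukemias, mice or cultures. The p-values therefore reflect only how far these 6 samples spread, which may in part be technical. No sample had the drug with Hes1 intact, so in each comparison below the loss of Hes1, the drug and active Cre cannot be told apart. In these bulk samples fewer cells of a type and less RNA per cell also cannot be told apart.

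NF-kappaB is a family of transcription factors held in the cytoplasm by IkappaB proteins. Signals from tumour necrosis factor receptors and the T-cell receptor build ubiquitin chains on adaptor proteins, the IkappaB kinase (IKK) complex is switched on, IkappaB is destroyed, and the freed dimers enter the nucleus. CYLD cuts such ubiquitin chains and so damps the pathway, and many genes that NF-kappaB induces, among them those for IkappaB proteins, feed back on it. In T-ALL, where the pathway serves leukemic cell survival, Cyld has been described as a gene that HES1 represses, and the comparison asks how Cyld, the other regulators and the target genes stand after Hes1 is deleted.

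The promoters of Cyld and of 4 IkappaB and target genes are shown because they hold, or lack, the short DNA words that NF-kappaB and HES1 are known to bind. Each is the 250 bases before the transcription start in RefSeq's GRCm38.p6 table, printed 5′ to 3′ on the gene's own strand. Capitals mark matches, on either strand, to the kappaB consensus GGGRNWYYCC (R is A or G, W is A or T, Y is C or T). They also mark the HES1 words CACNAG (the N box) and CACGNG (the class C site), where N is any base. CACGAG fits both HES1 words, so one stretch can count for both. Nfkbia is shown as a textbook NF-kappaB target, and the others are Cyld and members with an unadjusted p under 0.05 below. Tab1, which also had such a p, is not in the table.
Cyld: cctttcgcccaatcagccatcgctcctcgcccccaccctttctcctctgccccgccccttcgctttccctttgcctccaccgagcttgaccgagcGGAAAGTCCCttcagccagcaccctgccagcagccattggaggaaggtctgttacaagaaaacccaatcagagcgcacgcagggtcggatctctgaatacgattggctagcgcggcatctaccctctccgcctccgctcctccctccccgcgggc
Nfkbia: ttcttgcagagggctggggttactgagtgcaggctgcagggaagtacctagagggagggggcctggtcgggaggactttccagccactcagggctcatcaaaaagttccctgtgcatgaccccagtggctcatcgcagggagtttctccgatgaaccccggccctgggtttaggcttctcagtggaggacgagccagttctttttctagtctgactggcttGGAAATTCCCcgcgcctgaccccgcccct
Nfkbie: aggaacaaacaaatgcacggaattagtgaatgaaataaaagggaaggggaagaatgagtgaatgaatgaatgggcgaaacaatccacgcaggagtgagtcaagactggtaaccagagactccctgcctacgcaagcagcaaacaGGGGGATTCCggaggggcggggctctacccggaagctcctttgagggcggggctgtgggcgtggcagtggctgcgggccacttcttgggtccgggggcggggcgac
Tnfaip2: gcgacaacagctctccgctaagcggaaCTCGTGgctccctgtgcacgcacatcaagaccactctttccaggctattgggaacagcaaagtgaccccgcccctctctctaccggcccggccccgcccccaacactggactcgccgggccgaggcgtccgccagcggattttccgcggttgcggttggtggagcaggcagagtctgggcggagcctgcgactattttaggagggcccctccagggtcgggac
Icam1: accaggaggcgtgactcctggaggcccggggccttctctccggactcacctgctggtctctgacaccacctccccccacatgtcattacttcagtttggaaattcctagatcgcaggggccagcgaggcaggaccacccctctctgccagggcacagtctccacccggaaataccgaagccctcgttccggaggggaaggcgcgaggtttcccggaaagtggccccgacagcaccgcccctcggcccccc

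The Cyld window lies at chr8:88696778-88697027 on the plus strand, and its capitals are 1 kappaB match that begins 155 bases before the start. It held no match to either HES1 word, and sequence outside this window was not searched. The Nfkbia window is chr12:55492648-55492897 on the minus strand, with a kappaB match 29 bases before the start. The Nfkbie window is chr17:45555450-45555699 on the plus strand, with a kappaB match 106 bases before the start. In the Tnfaip2 window, chr12:111442411-111442660 on the plus strand, the capitals are CTCGTG, 223 bases before the start, which fits both HES1 words read on the other strand. The Icam1 window, chr9:21015690-21015939 on the plus strand, held none of the 3 words, which says only that these letters are not in this window. It does hold tggaaattcc, which differs from the kappaB consensus in its first letter alone. Near matches were not searched.

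Among the 36 members with a promoter in the table, 12 (33.3%) held a kappaB match, against 4.46% of all 27025 genes there. By class, 8 of 19 target genes (42.1%) and 4 of 17 regulators (23.5%) held one. The members were named for their place in this pathway, and the targets as NF-kappaB-induced genes. The list was therefore not independent of such sites, and the larger share is no finding about it. N box matches stood in 25% of the members and 40.1% of all genes, and class C matches in 30.6% and 26.1%. A match is a string of letters and not a measured binding site. The 10 tested members with a kappaB match had a median log2 change of 0.01, with values from -0.19 to 0.27. The 14 tested members without one had a median of 0.12, from -0.45 to 0.73. This split rests on exact matches to the consensus in 250 bases, so a member with a near match, such as Icam1, counts as without.

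The arrays differed in brightness, with a mean signal of 703 to 713 intensity units per probe in WT and 520 to 687 in KO, where KO replicate 1 was the dimmest. Between 15807 and 16685 of 45281 probes were detected per array. Across features KO replicate 1 correlated least with the rest, at a mean of 0.981 against 0.990 to 0.991. The targeted gene matched the labels: Hes1 was above background on every WT array and on 0 KO arrays, at least 53.5-fold lower in KO. Of 9 T-lineage markers with a probe, 6 were detected on at least 3 arrays (Cd3d, Cd3e, Cd3g, Cd8b1, Thy1 and Ptcra), while Cd8a and Cd5 were detected on 0 and Cd4 on 2. Of 9 myeloid markers with a probe 0 were detected on 3 or more arrays and 8 on none, Lyz2 and Cd14 among them. The summed level of the myeloid list, after background correction, was 73.4 to 83.3 units in WT and 91.0 to 99.0 in KO, against 84600 to 94000 for the T-lineage list over both groups. No B cell, natural killer, dendritic or erythroid marker was detected on 3 arrays (0 of 13). Of 5 stromal and endothelial markers 1 was, Pecam1, which blood cells also use. Sums of lists with 0 markers detected on 3 arrays, the myeloid list among them, lie near the floor and differed both ways. The dendritic list summed to 38.1 to 39 units in WT and 46.3 to 59.2 in KO. The natural killer list summed to 51.3 to 58.4 units in WT and 41 to 49.5 in KO, while the B cell and erythroid ranges overlapped.

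No member passed the test across all features: 0 of 30 had an adjusted p under 0.05 in limma, where 0.0623% of all features did. At an unadjusted p under 0.05 there were 4 members (13.3%), all higher in KO, against 9.27% of all features, of which 5.00% were called higher and 4.27% lower. They were Tnfaip2, Icam1, Tab1 and Nfkbie. The 3 KO values lay above all 3 WT values in 5 members (16.7%), these 4 and Map3k14, and below them in 0, against 8.49% and 7.69% of all features, or 16.2% in either direction. In all, 21 of the 30 measured higher in KO (Tab2 only at 0.00) and 9 lower, against 50.5% of all features higher, and with each array scaled to its median the sign turned to lower in 12 of the 21. The median change of the members was 0.07 on the log2 scale and that of all features 0.00. These counts moved when 1 array was left out, where having fewer values can itself raise a p. Without WT replicate 2, and without WT replicate 3, only Icam1 and Tnfaip2 kept an unadjusted p under 0.05 in limma. Tab1 still measured 0.29 and 0.30 in those fits, and Nfkbie 0.29 in each. Without KO replicate 2, 6 members had such a p. Scaling each array to its median, in place of quantile normalisation, moved the median of all features to -0.17 and that of the members to -0.13, and 1 member, Tnfaip2, kept an unadjusted p under 0.05. Read against the median of all features, 20 members lay above it in both scalings, and of the 12 whose sign turned only Tab2 lay below it, at -0.04.

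**Figure D1:**
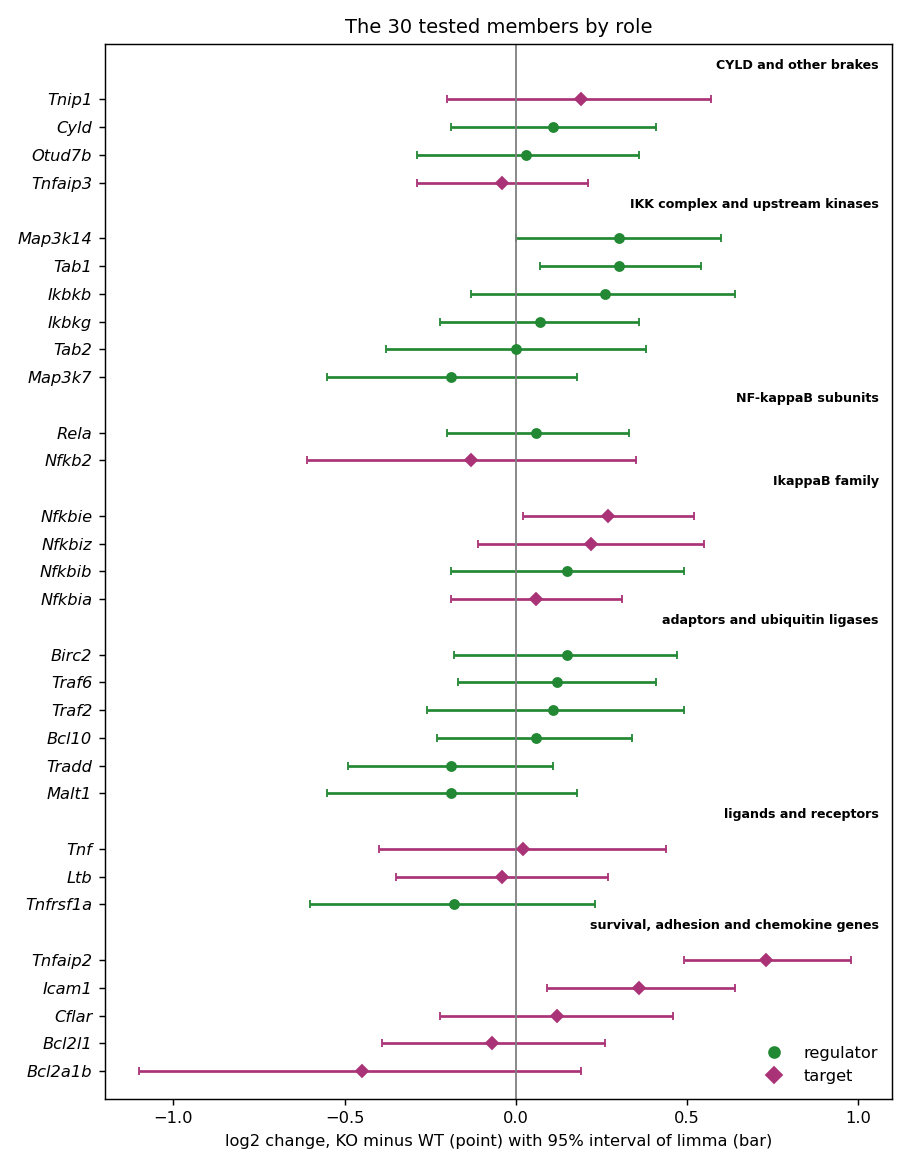
Log2 change, KO minus WT, of the 30 tested members (points) with the 95% interval of the limma fit (bars), grouped by role, regulators in green and known targets in purple. Tnfaip2 stands farthest from 0 at 0.73, Bcl2a1b has the widest interval, and Cyld at 0.11 has an interval that spans 0.

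Cyld did not measure differently between the groups beyond the spread between arrays. Its normalised log2 intensity, here and below in the order of replicates 1, 2 and 3, was 10.92, 10.56 and 10.77 in WT and 10.76, 10.94 and 10.86 in KO. The groups overlapped, since WT replicate 1 lay above KO replicates 1 and 3, and WT replicate 2 was the lowest of the 6. The log2 change, KO minus WT, was 0.11 ± 0.13 (SE, n = 3 each), with a limma adjusted p of 0.80. Its 95% interval ran from -0.19 to 0.41, or from 0.875-fold to 1.33-fold, so these arrays do not show whether Cyld was a little higher, a little lower or level. Leaving out 1 array gave 0.01 without WT replicate 2, 0.19 without WT replicate 1 and values between these for the other 4. With median scaling it was -0.11, which was 0.07 above the median of all features. A second Cyld probe detected on all 6 arrays gave 0.00 ± 0.15, and the remaining 2 probes of the gene were detected on 2 and on 0 arrays.

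None of the other brakes had groups that did not overlap, where 16.2% of all features had such groups. So few genes cannot be told apart from that share. Tnfaip3, which encodes the ubiquitin-editing enzyme A20 and is itself an NF-kappaB target, measured 8.43, 8.42 and 8.45 in WT and 8.27, 8.49 and 8.41 in KO. The WT arrays lay within the range of the KO arrays, and the change was -0.04 ± 0.11 (SE, log2). Tnip1, whose protein binds A20, measured 9.80, 9.65 and 9.69 in WT and 10.19, 9.94 and 9.58 in KO. KO replicates 1 and 2 were the highest arrays for Tnip1 and KO replicate 3 the lowest, which gave 0.19 ± 0.17 (SE, log2) with an adjusted p of 0.736 in limma. Tnip1 measured 0.35 when KO replicate 3 was left out (unadjusted limma p 0.043) and 0.04 when KO replicate 1 was, and its other 2 detected probes gave 0.20 and 0.28. Otud7b, which encodes the deubiquitinase Cezanne, measured 0.03 ± 0.14 (SE, log2).

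Among the kinases and their partners, 5 of 6 tested members measured higher in KO, Tab2 only at 0.00, against 50.5% of all features. The median change of these members was 0.16 on the log2 scale. With median scaling Ikbkg and Tab2 measured -0.12 and -0.21, which relative to the median of all features was 0.06 and -0.04. Tab1 encodes the partner protein of the kinase TAK1, which sits above IKK. It measured 12.35, 12.27 and 12.30 in WT and 12.68, 12.61 and 12.54 in KO. All 3 KO arrays lay above all 3 WT arrays, with little spread in either group. The change was 0.30 ± 0.10 (SE, log2; n = 3 each), or 1.24-fold, with an unadjusted p of 0.0187 and an adjusted p of 0.426 in limma. All 4 Tab1 probes were detected on 6 arrays and gave 0.30, 0.31, 0.32 and 0.22. Probes of a gene read the same RNA and are not replicates. With median scaling Tab1 measured 0.07, which was 0.24 above the median of all features, and its unadjusted limma p was 0.0532 without WT replicate 2 and 0.0597 without WT replicate 3.

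Map3k14, which encodes NIK, the kinase that starts the alternative NF-kappaB pathway, measured 8.03, 7.92 and 7.92 in WT and 8.47, 8.09 and 8.20 in KO. The groups did not overlap, but KO replicate 2 stood only just above WT replicate 1. The change was 0.30 ± 0.13 (SE, log2), with an unadjusted p of 0.0509 and an adjusted p of 0.542 in limma, and 0.19 without KO replicate 1, which was the highest. Ikbkb, the catalytic IKK subunit IKK-beta, measured 0.26 ± 0.16 higher (SE, log2), from 8.71 to 8.82 in WT and at 9.33, 8.71 and 9.03 in KO. KO replicate 1 again stood highest, and the Ikbkb value was 0.10 without it and 0.42 without KO replicate 2. Ikbkg, the regulatory subunit NEMO, measured 0.07 ± 0.12. Map3k7, which encodes TAK1 itself, measured -0.19 ± 0.16, and Tab2, another TAK1 partner, 0.00 ± 0.16 (SE, log2). The other catalytic IKK gene, Chuk, had no probe under its symbol here.

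**Figure D2:**
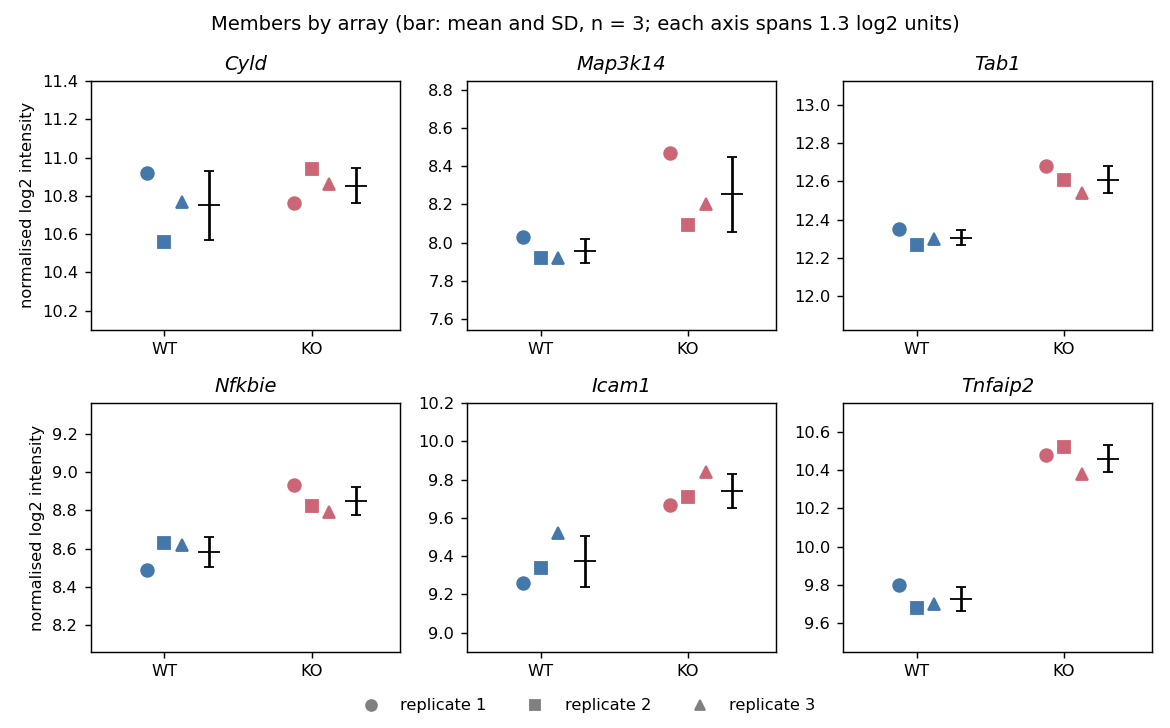
Normalised log2 intensity of Cyld and of the 5 members whose groups did not overlap, by array (points; circle, square and triangle are replicates 1, 2 and 3), with the mean and SD of each group (n = 3). The Cyld groups overlap, and the gap between groups is widest in Tnfaip2, from 9.80 to 10.38.

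Of the 5 subunit genes of NF-kappaB, 2 were tested. Rela, the main activating subunit in most cells, measured 11.32, 11.37 and 11.31 in WT and 11.24, 11.52 and 11.43 in KO. KO replicate 1 was the lowest array for Rela and KO replicates 2 and 3 the highest, so the groups overlapped, and the change was 0.06 ± 0.11 (SE, log2), at a limma adjusted p of 0.884. Nfkb2, the precursor subunit of the alternative pathway and itself an NF-kappaB target, was dim: it measured 5.70, 5.51 and 5.57 in WT and 5.94, 5.17 and 5.27 in KO and was detected on 5 arrays. KO replicate 1 was its highest array and the other 2 KO arrays its lowest. The change was -0.13 ± 0.21 (SE, log2), but it was -0.37 without KO replicate 1, where the unadjusted limma p was 0.0119, and 0.02 without KO replicate 2. Rel was detected on 0 arrays and Relb on 1, and Nfkb1 had no probe under its symbol here.

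All 4 tested IkappaB genes measured higher in KO, against 50.5% of all features, and their median was 0.19 on the log2 scale. Nfkbia, at -0.15 with median scaling, was then 0.03 above the median of all features. Of the 4, only Nfkbie had groups that did not overlap, where 16.2% of all features had such groups. Nfkbie encodes IkappaB-epsilon, which NF-kappaB induces as a delayed brake. It measured 8.49, 8.63 and 8.62 in WT and 8.93, 8.82 and 8.79 in KO. The change was 0.27 ± 0.11 (SE, log2; n = 3 each), or 1.21-fold, with an unadjusted p of 0.0365 and an adjusted p of 0.492 in limma. In each of the 6 fits without 1 array its unadjusted limma p was over 0.05, from 0.0539 to 0.108, while the change stayed between 0.22 and 0.30. A second Nfkbie probe gave 0.14 ± 0.21.

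Nfkbia, IkappaB-alpha, is the classic fast feedback target, and its promoter holds the kappaB match shown above. It measured 9.96, 10.12 and 10.06 in WT and 10.03, 10.11 and 10.17 in KO. The groups overlapped, with a change of 0.06 ± 0.11 (SE, log2) and a 95% interval of 0.878-fold to 1.24-fold. Nfkbiz, an atypical nuclear IkappaB protein that shapes target gene choice, measured 8.16, 7.99 and 7.89 in WT and 8.37, 8.0 and 8.33 in KO. KO replicate 2 lay among the WT arrays, and the change was 0.22 ± 0.14 (limma adjusted p 0.657). Nfkbib, IkappaB-beta, measured 0.15 ± 0.14 (SE, log2). Bcl3, another nuclear IkappaB protein, was detected on 0 arrays.

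Of the 10 adaptor and ubiquitin ligase genes, 6 were tested, 4 higher and 2 lower in KO, against 50.5% of all features higher. Their median was 0.08 on the log2 scale. Traf6, Birc2 and Bcl10, below 0 with median scaling, then lay 0.08, 0.11 and 0.02 above the median of all features. Tradd, the adaptor of tumour necrosis factor receptor 1, measured 9.76, 9.85 and 9.57 in WT and 9.38, 9.67 and 9.57 in KO. Its lowest array was KO replicate 1 and its highest were WT replicates 1 and 2, and the change was -0.19 ± 0.13 (SE, log2), at a limma adjusted p of 0.667. A second Tradd probe gave 0.15. Malt1, the protease of the complex through which the T-cell receptor reaches IKK, measured 6.31, 6.12 and 6.19 in WT and 6.12, 5.71 and 6.23 in KO. KO replicate 2 alone lay below the others, and without it the Malt1 value was -0.03. Bcl10, the partner of MALT1, read 10.84 on each WT array and 10.68, 11.02 and 10.97 on the KO arrays, so the KO arrays lay on both sides of WT.

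Traf6, a ubiquitin ligase above TAK1, measured 0.12 ± 0.13 (SE, log2), and its other 2 detected probes gave -0.02 and -0.27. Birc2, which encodes a ubiquitin ligase that holds NIK in check, measured 0.15 ± 0.14, and its other 3 gave -0.22, 0.07 and 0.16. The probes of these genes, like those of Tradd and Tnf, did not share a sign. Traf2 measured 0.11 ± 0.16. Traf1 and Birc3, both known as NF-kappaB targets, were detected on 0 arrays, and Traf3 and Ripk1 had no probe under their symbols here. Over all members, 13 had more than 1 kept probe, and in 9 of these the probes shared a sign.

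**Figure D3:**
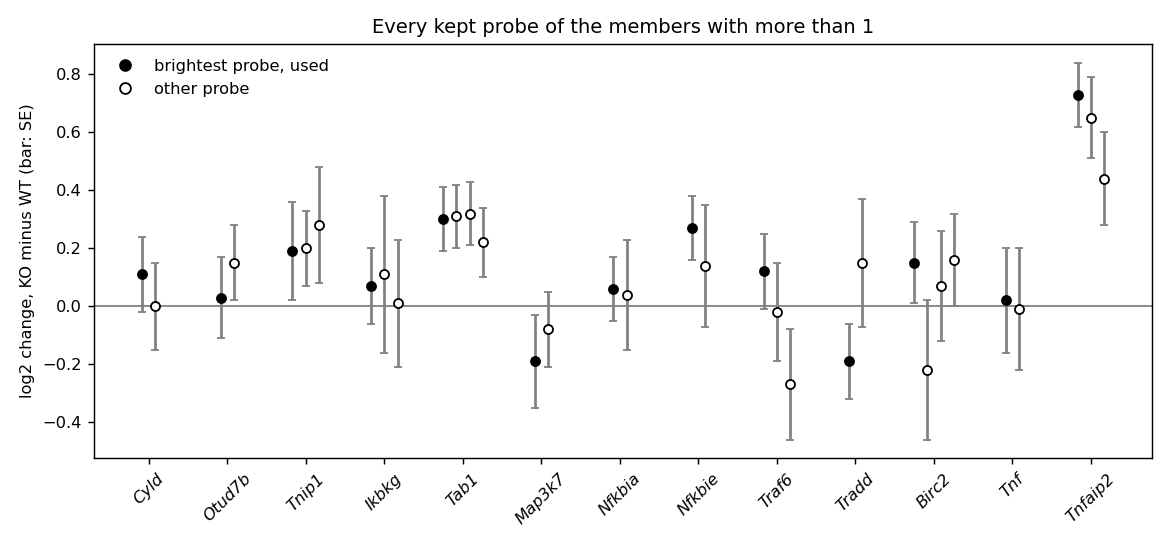
Log2 change, KO minus WT, of every kept probe of the 13 members with more than 1 (points), with its SE (bars, from a fit over all kept probes); filled points are the brightest probes, which give the values in the text. The 3 Tnfaip2 probes run from 0.44 to 0.73, the 4 Tab1 probes from 0.22 to 0.32, and the probes of Traf6, Tradd, Birc2 and Tnf fall on both sides of 0.

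Of the 3 tested ligands and receptors, Tnf measured higher and Ltb and Tnfrsf1a lower in KO, against 50.5% of all features higher. All had groups that overlapped, where 16.2% of all features had groups that did not. The receptors were dim or not detected. Tnf, the founding ligand and an NF-kappaB target, measured 7.75, 8.18 and 7.80 in WT and 8.25, 7.82 and 7.72 in KO. Its highest arrays were KO replicate 1 and WT replicate 2, which left the groups level at 0.02 ± 0.18 (SE, log2). Ltb, lymphotoxin beta, a ligand that lymphoid cells make, measured 9.61, 9.95 and 9.60 in WT and 9.59, 9.75 and 9.71 in KO. The groups overlapped, with WT replicate 2 the highest array, for a change of -0.04 ± 0.13 (limma adjusted p 0.938). Tnfrsf1a, tumour necrosis factor receptor 1, measured 5.22, 5.50 and 5.13 in WT and 5.26, 4.76 and 5.27 in KO. It was detected on 1 WT and 2 KO arrays, and its change of -0.18 ± 0.18 had an adjusted p of 0.752 in limma and was -0.02 without KO replicate 2. Lta, Ltbr and Tnfrsf1b were detected on 0 arrays.

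Tnfaip2 had the largest change and the smallest p of the members. It encodes a protein that shapes cell protrusions and was found as a gene induced by tumour necrosis factor in endothelial cells. It measured 9.80, 9.68 and 9.70 in WT and 10.48, 10.52 and 10.38 in KO. Every KO array lay above every WT array, by more than the whole range within either group. The change was 0.73 ± 0.10 (SE, log2; n = 3 each), or 1.66-fold with a 95% interval of 1.41 to 1.97, and the gene ranked 19th of 11241 features by p. Its adjusted p in limma was 0.0843, which missed the threshold of 0.05, and it ran from 0.0201 to 0.446 over 17 alternative settings. It was under 0.05 in 6 of them, in which from 17 to 119 of all features passed, against 7 here. The change stayed between 0.54 and 0.78 over the 17 settings, 0.54 being the value with median scaling, where it stood 0.71 above the median of all features. Its other 2 probes gave 0.65 and 0.44. KO replicate 1, the dimmest array, made little difference, the value being 0.72 without it.

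Icam1, an adhesion molecule whose induction by NF-kappaB is well known, came next. It measured 9.26, 9.34 and 9.52 in WT and 9.67, 9.71 and 9.84 in KO. The groups did not overlap, though KO replicate 1 stood only a little above WT replicate 3. The change was 0.36 ± 0.12 (SE, log2; n = 3 each), or 1.29-fold, with an unadjusted p of 0.0158 and an adjusted p of 0.417 in limma. The unadjusted limma p was 0.0548 without WT replicate 1 and 0.0584 without KO replicate 3. Pecam1, the endothelial marker that was detected, also measured higher in KO, by 0.53 ± 0.16 (unadjusted p 0.0127 in limma), and its part in the values of Icam1 and Tnfaip2 was not tested. The other endothelial marker, Cdh5, was detected on 1 array.

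Among the tested survival genes, none had groups that did not overlap, where 16.2% of all features had such groups. So few genes cannot be told apart from that share. Cflar, which encodes the caspase inhibitor c-FLIP, measured 9.18, 9.68 and 9.43 in WT and 9.56, 9.50 and 9.59 in KO. The KO arrays lay inside the WT range, with a change of 0.12 ± 0.14 (SE, log2). Bcl2l1, which encodes BCL-XL, measured -0.07 ± 0.14. Bcl2a1b, a BCL2 relative, gave the lowest value of all members, -0.45 ± 0.28, but it was detected on only 2 WT arrays and 1 KO array and spread from 4.70 to 5.76. It belongs to a family of near-identical mouse genes whose probes may read each other's RNA, so its identity is uncertain. Bcl2a1d was detected on 0 arrays, as were the maturation marker gene Cd83 and the chemokine genes Ccl3, Ccl4 and Ccl5.

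Set against each other, the 17 tested regulators and the 13 tested targets had similar medians, 0.07 and 0.06 on the log2 scale. The classes are not distinct in function, since targets such as Tnfaip3, Nfkbia and Nfkbie also act back on the pathway. Regulators may also include genes that NF-kappaB induces. Of the regulators 13 measured higher in KO and 4 lower, and of the targets 8 measured higher and 5 lower, against 50.5% of all features higher. The target values ran from -0.45 in Bcl2a1b to 0.73 in Tnfaip2 and the regulator values from -0.19 to 0.30, while the median absolute change was 0.13 for targets and 0.15 for regulators. Against each gene's WT mean, the targets' median stood at 0.30, 0.06 and 0.13 on KO replicates 1, 2 and 3, and the regulators' at 0.08, 0.09 and 0.05. The target median moved with single arrays: it was -0.01 without WT replicate 1 and 0.16 without WT replicate 2. The 12 targets that were not tested are not part of these figures.

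Array by array, KO replicate 1 gave the highest value of the 6 in 12 of the 30 members (40%) and the lowest in 8 (26.7%). Over all features that array was highest in 29.2% and lowest in 31.2%, so it stood at the ends of the range across the whole array and not in these genes alone. KO replicate 2 was highest in 8 members (26.7%) and lowest in 5 (16.7%), against 13.6% and 12.2% of all features. KO replicate 3 was highest in 3 members (10%) and lowest in 2 (6.67%), against 12.7% and 11.4% of all features. The median spread within groups was 0.17 log2 units for the members and 0.18 for all features.

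**Figure D4:**
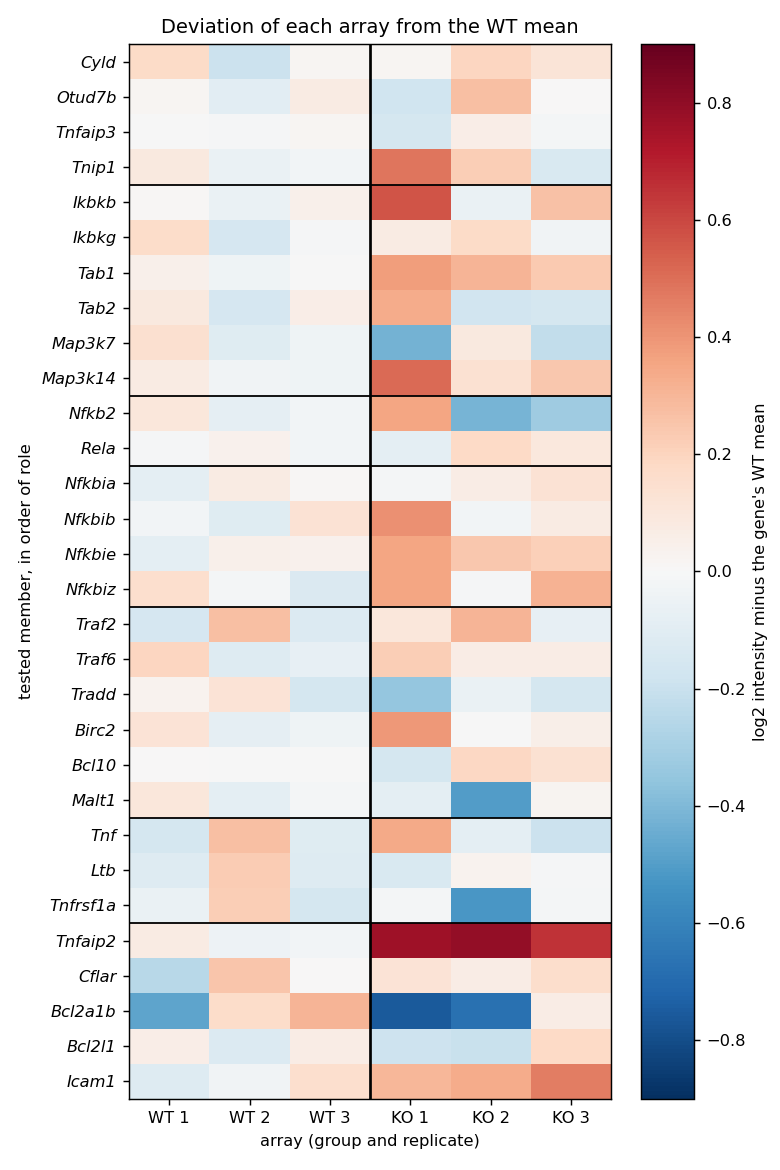
Log2 intensity of each tested member on each array minus that gene's WT mean (colour, red higher and blue lower), with members in order of role, thin lines between roles and a thick line between WT and KO. Tnfaip2 is red on all 3 KO arrays, Tab1, Map3k14, Nfkbie and Icam1 are paler red on all 3, and several other members, such as Nfkbib and Birc2, stand out on KO replicate 1 without the same on the other KO arrays.

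A wider list of 61 pathway genes outside the 47 held 40 tested genes. Of these 0 passed the limma test over all features, where 0.0623% of all features did. In KO 22 measured higher and 18 lower, against 50.5% of all features higher, and the median was 0.02 on the log2 scale. The groups did not overlap in 3 genes higher and 2 lower in KO, against 8.49% and 7.69% of all features. In limma 1 gene had an unadjusted p under 0.05, against 9.27% of all features. The 1 gene was Tnfsf11, which encodes RANKL, a ligand that activates NF-kappaB. It was dim, at 5.44, 5.42 and 5.57 in WT and 5.77, 6.37 and 5.77 in KO, a change of 0.49 ± 0.18 (SE, log2) with an adjusted p of 0.466 in limma. Il2ra, the interleukin-2 receptor alpha chain and a known NF-kappaB target, measured 11.45, 11.34 and 11.57 in WT and 11.92, 11.63 and 11.65 in KO, with groups that did not overlap, a change of 0.28 ± 0.13 and an adjusted p of 0.576 in limma.

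Among the 4 genes with the smallest p in each of its signalling and target lists, values went both ways. The kinase gene Tbk1 measured 0.21 ± 0.11 and the matrix protease gene Mmp9 0.37 ± 0.17 (SE, log2). Mmp9 was dim and was detected on 1 WT and 3 KO arrays. Ube2v1, which encodes a partner of the enzyme that builds the ubiquitin chains read by TAK1, measured -0.30 ± 0.14, and Commd1, whose protein limits NF-kappaB, -0.21 ± 0.12. The adhesion receptor gene Cd44 measured -0.27 ± 0.17 and the superoxide dismutase gene Sod2, a known target, -0.14 ± 0.11. Cd44 was also dim and was detected on 2 WT arrays and 1 KO array. In limma the adjusted p of all these genes lay between 0.571 and 0.711. Of 26 wider targets, 14 had probes that were not detected on 3 arrays, among them Il6, Il1b, Cxcl10, Vcam1 and Ptgs2, each detected on 0.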

How the data were processed

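Total RNA from 3 WT and 3 KO samples was read on Illumina mouse arrays, after amplification of 10 ng per sample per the labels' protocols. The deposited table held, for each probe and array, linear intensities with detection p-values, per the file headers, without background subtraction or normalization. A second deposited table held the authors' log2 values, which equalled quantile-normalized log2 intensities within 5e-05, so its scale was settled and it was not centred. No source used here names the scanner software.

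Intensities were background-corrected with neqc (offset 16, limma 3.58.1, R 4.3.3), quantile normalized and put on the log2 scale. Probe symbols came from the platform annotation: 34885 of 45281 probes had 1 symbol, 18 several and 10378 none here; 34807 matched RefSeq (GRCm38.p6). From 16287 kept probes, the brightest of each of 8836 named genes and 2405 probes with no single symbol made 11241 features. KO was compared with WT by limma (lmFit, eBayes) with Benjamini-Hochberg adjustment over these. The number of arrays limits the precision. The steps were run on simulated data with known changes. The checks on recovered changes covered those of 1 log2 unit or more. The largest change among the members was 0.73, so these checks do not cover changes of the members' size. No arrays were identical. Alternatives were other background corrections and scalings, the authors' values, other filters, the mean of probes, a replicate block, array weights, another prior and leaving out each array.

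The members and lists were chosen with earlier results of these data known. Values on every array are given for Cyld, members with an unadjusted p under 0.05 and the 2 smallest p of each role, with a few others, and values alone for up to 4 genes of each wider list. Targets are members listed here as known NF-kappaB-induced genes, many of which also regulate the pathway. Regulators are the rest, and some of them may be induced as well. Motifs were searched in RefSeq promoters with Python 3.11.15.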

Additional observations from a re-analysis of the deposited data

How the results depend on the processing

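Over 17 alternative settings the 30 tested members gave 501 values, of which 471 kept the sign reported. The number of members past the limma threshold was 0 in the report and stayed 0 in the fits without 1 array. It became 1, Tnfaip2, with a normexp fit on the signals alone (adjusted p 0.0287), no background correction (0.0203), the authors' log2 values (0.0203), detection p under 0.01 on all arrays (0.0454), array weights (0.0202) and a trended robust prior (0.0201). In these 6 settings, in the same order, 30, 36, 36, 17, 119 and 47 of all features passed, against 7 in the report. The number at an unadjusted p under 0.05 was 1 with median scaling and ran from 2 to 6 without 1 array. The median of the members was -0.13 with median scaling and 0.11 with detection p under 0.01 on all arrays, and ran from 0.05 to 0.11 without 1 array. The median of the regulators was -0.12 with median scaling and ran from 0.02 to 0.11, and that of the targets -0.15 and from -0.01 to 0.16. With median scaling the sign turned in Tnip1 (-0.01), Birc2 (-0.06), Cflar (-0.07), Traf6 (-0.09), Cyld (-0.11), Ikbkg (-0.12), Nfkbia (-0.15), Rela (-0.15), Otud7b (-0.16), Bcl10 (-0.16), Tnf (-0.17) and Tab2 (-0.21), beside a shift of all features by -0.17. It turned in Traf6 (-0.06) with the mean of probes, and in Tnf (-0.07), Tab2 (-0.16) and Ltb (0.05) with array weights. Without 1 array the values that crossed 0 ran from -0.14 to 0.15 in Tnf, -0.17 to 0.09 in Tab2, -0.10 to 0.08 in Ltb, -0.09 to 0.02 in Tnfaip3, -0.01 to 0.16 in Bcl10, -0.09 to 0.14 in Otud7b, -0.37 to 0.02 in Nfkb2, -0.01 to 0.24 in Cflar and 0.00 to 0.15 in Ikbkg. The cause of these shifts was not tested. Whether replicate numbers pair the arrays was not settled. Deviations from the group means correlated at -0.098, -0.272 and 0.150 for same-numbered arrays and from -0.204 to 0.255 for the others. With 3 arrays per group such values can neither show nor exclude pairing. With a replicate block 0 members passed, 4 had an unadjusted p under 0.05 in limma (Tnfaip2, Icam1 and Tab1, with Bcl2a1b lower in KO at p 0.0371 in place of Nfkbie at 0.0729), and Cyld measured 0.11. Signal over background limits Nfkb2, Tnfrsf1a and Bcl2a1b, which were not detected on every array.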
